A study of Mus musculus with 18 samples.

Results

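Penk, Rln3, Npas4, Ptpn5 and Dscam are genes best known from neurons, and all were measured here in sorted mouse T cells. They were 5 of the 26665 genes in the deposited tables, and were chosen as genes known from neuropeptide or neuronal biology that had been found at their highest level in Nrp1+ regulatory T cells of these same libraries. That choice used their levels, so the differences between cell populations below describe the genes and were not tested. Each level is an FPKM value (fragments per length of transcript and per sequencing total), which is scaled to transcript length and so allows levels of different genes to be set side by side. All 5 passed the filter on low values, an FPKM of at least 1 in at least 3 of the 18 libraries. Dscam passed through Nrp1+ Treg alone, with 4 such libraries, and Ptpn5 through 6 Nrp1+ Treg libraries and 1 other.

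The cells came from the spleen of C57BL/6 mice. Every mouse carried the Foxp3EGFP reporter, in which green fluorescence marks cells that express Foxp3, the master transcription factor of regulatory T cells (Treg). The wild type mice carried the reporter alone, and the CD28-/- mice carried it together with loss of CD28, the main costimulatory receptor of T cells. Sorting gave 3 populations per genotype: Nrp1+ Treg, which the study equates with Treg formed in the thymus (tTreg), Nrp1- Treg, which it equates with Treg formed in the periphery (pTreg), and conventional T cells (Tconv). Each of the 6 groups had 3 libraries of total RNA, read as 50-base single reads. The age of the mice is not given in the sources used here, and nothing there says whether replicates were separate animals, so p-values measure only the spread between these libraries.

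Proenkephalin, the product of Penk, is an opioid precursor that is cut at pairs of basic residues into enkephalin pentapeptides, which act on delta and mu opioid receptors; T cells are also a known source of it. Rln3 encodes relaxin-3, a brain neuropeptide of the insulin superfamily whose receptor is Rxfp3. Npas4 encodes a bHLH-PAS transcription factor that neurons induce on calcium entry. Ptpn5 encodes STEP, a striatum-enriched tyrosine phosphatase that inactivates ERK and p38 MAP kinases and Fyn. Dscam encodes a large immunoglobulin-superfamily adhesion molecule that lets neurites recognise and avoid each other and that also binds netrin.

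The enkephalin-coding units of Penk are shown because Penk is the member on which the results for CD28 turn, and these units code for the enkephalin pentapeptides within its product. In the GENCODE M21 transcript Penk-201 the coding sequence was 807 bases long, and a search found 7 such units, 6 for Met-enkephalin and 1 for Leu-enkephalin. The units used 6 distinct 15-base runs, shown in capitals below, with the 6 neighbouring bases on each side in lower case.
Met-enkephalin unit 1: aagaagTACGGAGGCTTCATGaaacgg
Met-enkephalin unit 2: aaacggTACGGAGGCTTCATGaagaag
Met-enkephalin unit 3: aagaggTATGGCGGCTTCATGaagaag
Met-enkephalin unit 4: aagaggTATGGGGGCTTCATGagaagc
Met-enkephalin unit 5: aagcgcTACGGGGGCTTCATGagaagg
Leu-enkephalin unit 6: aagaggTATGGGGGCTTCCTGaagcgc
Met-enkephalin unit 7: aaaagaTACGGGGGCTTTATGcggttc
The first unit began at base 298 of the coding sequence and the last ended at base 798. Of the 7 units, 5 had codons for a pair of basic residues on both sides. Units 4 and 7 had such a pair only before them, so the flanking rule for release as a pentapeptide was not met at their far end.

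Rln3 is shown with the sequence before its start. Its nearest neighbour is very close but lies on the other side, beyond its end. On GRCm38 Rln3 lies on the minus strand of chromosome 8 from 84042929 to 84045000, and Il27ra, the receptor chain for interleukin 27, begins 340 bases beyond its end on the same strand. RefSeq's table for GRCm38.p6 gave the upstream bases chr8:84045001-84045229, minus strand, 5′ to 3′.
Rln3 upstream: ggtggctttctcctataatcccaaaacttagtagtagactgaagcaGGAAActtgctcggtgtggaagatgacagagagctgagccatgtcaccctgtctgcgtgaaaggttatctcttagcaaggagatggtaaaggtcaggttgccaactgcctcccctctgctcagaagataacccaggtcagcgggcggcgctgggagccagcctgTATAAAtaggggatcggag
The capitals mark 1 match to the TATA box TATAAA, held by 11.7% of the 32851 windows of this length in the table, and 1 match to GGAAA, the core of NFAT sites, held by 52.5%. On either strand there was no match to the cAMP response element core TGACG, held by 15.8% of windows, or to the AP-1 site TGANTCA, held by 6.33%. The forkhead motif TGTTTAC, held by 2.91%, and the NPAS4 element core TCGTG, held by 12.4%, had no match either. These are letter matches only.

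Penk lies on chromosome 4 (GRCm38, 4133531 to 4138819), Npas4 on chromosome 19 (4984355 to 4990316), Ptpn5 on chromosome 7 (47077795 to 47133684) and Dscam on chromosome 16 (96590840 to 97170752), all on the minus strand and all protein coding in GENCODE M21. The members thus sit on 5 different chromosomes. Penk, Ptpn5 and Dscam overlap noncoding genes on the opposite strand that were not analysed here. Whether counting used strand is not given in the sources used here, so reads from such partners could not be told apart from the members' own.

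Treg and sorting markers matched the labelled populations with 1 exception. Among wild type cells, Foxp3 averaged 115 ± 20.2 FPKM (SD, n = 3) in Nrp1+ Treg, 89.6 ± 29.1 in Nrp1- Treg and 0.224 ± 0.0538 in Tconv. Nrp1, the sorting marker, averaged 69.5 ± 13.9 there in the Nrp1+ and 0.787 ± 0.181 in the Nrp1- cells. The exception was CD28-/- Tconv replicate 3, with Foxp3 at 21.1 FPKM against 0.0670 and 0.205 in the other libraries of its group. Cd28 averaged 60.0 in wild type and 76.1 in CD28-/- Nrp1+ Treg, and was likewise not lower in the other CD28-/- populations, so its whole-gene value does not check the genotype labels. Library sums of FPKM ran from 514726 to 994139, and 10703 to 11741 genes reached 1 FPKM per library. The files hold no read counts, so the depth is unknown. Besides CD28-/- Tconv replicate 3, the others that stood apart from their groups were CD28-/- Nrp1+ Treg replicate 3, which held more Tconv transcripts, and replicate 1 of wild type Nrp1- Treg and of wild type Tconv, in which 20.8% and 19.4% of all FPKM fell on Mir5105. That share was highest, at 26.9%, in CD28-/- Tconv replicate 3 itself, and 2.98 to 11.6% in the remaining libraries; its part in the members' values was not tested. In CD28-/- Nrp1+ Treg replicate 3 the 5 members stood at 84.4 to 97.9% of their group's mean.

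Markers of neurons were at or near 0, so the genes named here came without the common genes of neurons. None of the 8 measured neuron markers reached 1 FPKM in any library, and their sum ran from 0.147 to 0.363 in wild type Nrp1+ Treg, 0.175 to 0.282 in CD28-/- Nrp1+ Treg and 0.365 to 0.586 in wild type Tconv. The highest sum, 1.02, was in a wild type Nrp1- Treg library. Syt1, a synaptic vesicle calcium sensor, was at 0 in 15 of 18 libraries. All 3 markers of catecholamine neurons, which innervate the spleen, stayed below 1 as well, with Th at 0 in 16 libraries. Of 5 glial markers only Mbp reached 1, and the glial sum lay between 23.4 and 51.9 FPKM over all 18 libraries.

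Penk was abundant in Nrp1+ Treg of both genotypes and far lower in the other populations. In wild type Nrp1+ Treg it stood at 44.0, 42.7 and 60.2 FPKM (49.0 ± 9.73), and in CD28-/- Nrp1+ Treg at 44.0, 39.3 and 32.6 (38.7 ± 5.75). In wild type Nrp1- Treg it stood at 3.38, 6.30 and 6.91 (5.53 ± 1.89), and in CD28-/- Nrp1- Treg at 0.444, 0.810 and 0.773 (0.676 ± 0.202). The Nrp1+ libraries of the genotypes overlapped, while every CD28-/- Nrp1- library lay below every wild type one. Wild type Tconv held 2.34, 1.15 and 1.29 (1.59 ± 0.648), and CD28-/- Tconv 0.140, 0.0312 and 7.67 (2.61 ± 4.38). Thus 2 of the CD28-/- Tconv libraries held the lowest values of all, and the other exceeded all 3 wild type Tconv libraries. Its mean in Nrp1+ Treg was 8.85 times that of Nrp1- Treg and 30.7 times that of Tconv in wild type cells. In CD28-/- cells these ratios were 57.2 and 14.8, or 452 against Tconv without replicate 3. In these bulk samples, fewer cells carrying a transcript and less of it per cell cannot be told apart.

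Rln3 was the member with the highest level per length in Nrp1+ Treg. Wild type Nrp1+ Treg held 62.8, 62.4 and 79.8 FPKM (68.3 ± 9.95) and CD28-/- Nrp1+ Treg 60.4, 61.7 and 55.5 (59.2 ± 3.28). The highest CD28-/- value thus lay just under the lowest wild type one, and the share of all genes with such a gap is not given. Unlike Penk, Rln3 kept a clear level in Nrp1- Treg of both genotypes, at 11.3, 20.4 and 16.6 in wild type (16.1 ± 4.54) and 15.4, 8.59 and 16.1 in CD28-/- cells (13.3 ± 4.13), which overlapped. Wild type Tconv had 2.45, 1.41 and 2.27 (2.04 ± 0.556) and CD28-/- Tconv 0.508, 0.551 and 20.1 (7.05 ± 11.3). Replicate 3 was again the library that exceeded the wild type. The mean in wild type Nrp1+ Treg was 4.25 times that of Nrp1- Treg, the smallest such ratio among the 5 genes, and 33.5 times that of Tconv. Il27ra next to it averaged 105 ± 18.3, 109 ± 45.3 and 111 ± 16.9 FPKM in these 3 wild type populations, and so did not follow the pattern of Rln3 across populations.

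Npas4 was close to 10 FPKM in Nrp1+ Treg of both genotypes. Its values were 8.66, 9.02 and 16.9 in wild type (11.5 ± 4.67) and 12.5, 9.86 and 10.8 in CD28-/- cells (11.0 ± 1.32), and these overlapped. Wild type Nrp1- Treg had 0.786, 1.71 and 1.18 (1.23 ± 0.463), and CD28-/- Nrp1- Treg 0.770, 0.934 and 1.24 (0.983 ± 0.241), which overlapped too. Wild type Tconv held 0.573, 0.607 and 0.556 (0.579 ± 0.0256), the narrowest spread of the gene. CD28-/- Tconv held 0.205, 0.0786 and 2.20 (0.827 ± 1.19). The ratio of Nrp1+ Treg to Nrp1- Treg was 9.40 in wild type and 11.2 in CD28-/- cells.

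Ptpn5 differed from the peptide genes in the order of its lower groups, since wild type Tconv lay above Nrp1- Treg. Nrp1+ Treg held 4.69, 4.21 and 8.13 FPKM in wild type (5.68 ± 2.14) and 4.84, 4.53 and 3.99 in CD28-/- cells (4.45 ± 0.428), and these overlapped. Wild type Tconv held 0.672, 0.591 and 0.685 (0.649 ± 0.0509), while wild type Nrp1- Treg held 0.279, 0.295 and 0.196 (0.257 ± 0.0534). The 2 last groups did not overlap, but all their values lay below 1 FPKM and the depth is unknown, so their order carries little weight. In CD28-/- Nrp1- Treg all 3 values, 0.0755, 0.0518 and 0.0422 (0.0565 ± 0.0172), were below the wild type ones. CD28-/- Tconv held 0.0671, 0.0804 and 1.05 (0.401 ± 0.566), with replicate 3 the only one above wild type. The Nrp1+ to Nrp1- ratio of means was 22.1 in wild type and 78.8 in CD28-/- cells, the largest of the 5 genes in both. These ratios rest on denominators of 0.257 and 0.0565 FPKM.

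Dscam had the lowest level of the 5 and was the only one with more in CD28-/- than in wild type Nrp1+ Treg. Wild type Nrp1+ Treg held 0.819, 0.733 and 1.32 FPKM (0.956 ± 0.315) and CD28-/- Nrp1+ Treg 3.18, 2.97 and 2.82 (2.99 ± 0.179). The groups did not overlap, but the share of all genes with such a gap is not given. The ratio of means was 3.13. Dscam was named for this difference in an earlier look at these data, so it is given without a test. Nrp1- Treg had 0.102, 0.0805 and 0.0760 in wild type (0.0860 ± 0.0137) and 0.0149, 0.0213 and 0.120 in CD28-/- cells (0.0522 ± 0.0591), where the last value exceeded all wild type ones. Wild type Tconv had 0.0175, 0.0219 and 0.0118 (0.0171 ± 0.00507). CD28-/- Tconv had 0.0180, 0.00535 and 0.422 (0.148 ± 0.237). Levels outside Nrp1+ Treg rest on values so low that the order of those groups carries little weight.

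**Figure D1:**
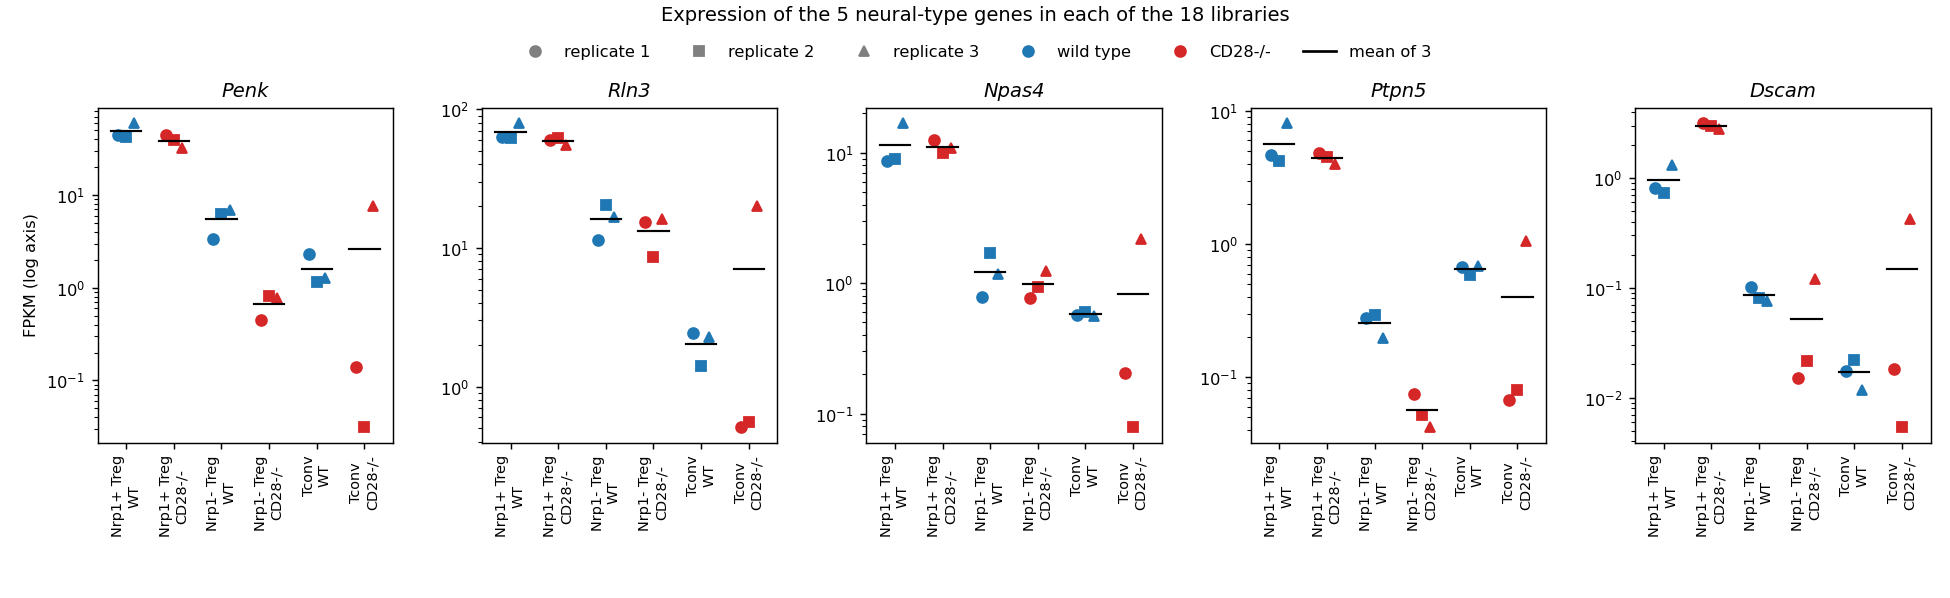
FPKM (log axis) of Penk, Rln3, Npas4, Ptpn5 and Dscam in each of the 18 libraries, by population and genotype; symbols give the replicate number and bars the mean of 3. The Nrp1+ Treg libraries are highest for each gene, and CD28-/- Tconv replicate 3 (triangle, right) stands above the other CD28-/- Tconv libraries.

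All 3 Nrp1+ Treg libraries lay above all 3 Nrp1- Treg libraries for 5 of 5 members in wild type, where 12.6% of the 12265 genes tested did the same, and for 5 of 5 in CD28-/- cells, where 11.9% did. Against Tconv the count was again 5 of 5 in each genotype, beside 14.1% of all genes in wild type and 26.5% in CD28-/- cells. The members were chosen for this pattern, so nothing is read from these counts. Nrp1+ Treg also had the highest sum of B cell markers in wild type cells, but only Cd79b followed that order without overlap. The sum of 3 B cell genes among wild type cells was 10.6 to 12.1 FPKM in Nrp1+ Treg, 4.64 to 7.57 in Nrp1- Treg and 1.33 to 1.87 in Tconv. Of these, Cd79a and Cd79b reached 1 FPKM, whereas Ms4a1 peaked at 0.224. Across these 3 wild type populations, in the same order, Cd79b averaged 9.88, 4.58 and 0.626 FPKM. Cd79a, at 0.634 to 2.27 in Nrp1+ Treg, overlapped Nrp1- Treg (1.04 to 1.34) and Tconv (0.662 to 1.02). Ms4a1 had its lowest wild type mean in Nrp1+ Treg, at 0.0161. In CD28-/- cells the B cell sum was 5.35 to 5.90 in Nrp1+ Treg and 4.22 to 6.10 in Nrp1- Treg, ranges that overlapped, and 0.922 to 3.18 in Tconv. The part of B cell transcripts in either comparison was not tested. Myeloid marker sums overlapped between all 6 groups.

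In 3 of the 6 groups at least 4 of the members peaked in the same library. Wild type Nrp1+ Treg replicate 3 was the highest of its group for 5 of 5 members, as for 61.5% of all genes tested, and also for Foxp3 (137 FPKM) and Nrp1 (83.5 FPKM). CD28-/- Nrp1+ Treg replicate 1 was the highest of its group for 4 of 5, against 16.9% of genes. CD28-/- Tconv replicate 3 was the highest of its group for all 5, against 26.6% of genes. In the other groups the members were split, with at most 3 of 5 in 1 library of wild type or CD28-/- Nrp1- Treg and 2 of 5 in wild type Tconv. Relative to the mean of CD28-/- Nrp1+ Treg, that library held Penk at 19.9%, Npas4 at 19.9%, Ptpn5 at 23.7%, Dscam at 14.1% and Rln3 at 34.0%. Nrp1 stood at 19.7% there, and of the 5 Treg markers Foxp3 at 21.5%, Ikzf2 (Helios) at 19.7%, Ctla4 at 21.5%, Il2ra at 26.3% and Tnfrsf18 (GITR) at 39.7%. Tnfrsf18 was also at 16.8% and 16.2% in replicates 1 and 2 of that group. In replicates 1 and 2 of the same group Penk was at 0.361% and 0.0807% and Foxp3 at 0.0683% and 0.209%. The part of these Treg transcripts in the members' levels in replicate 3 was not tested.

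**Figure D2:**
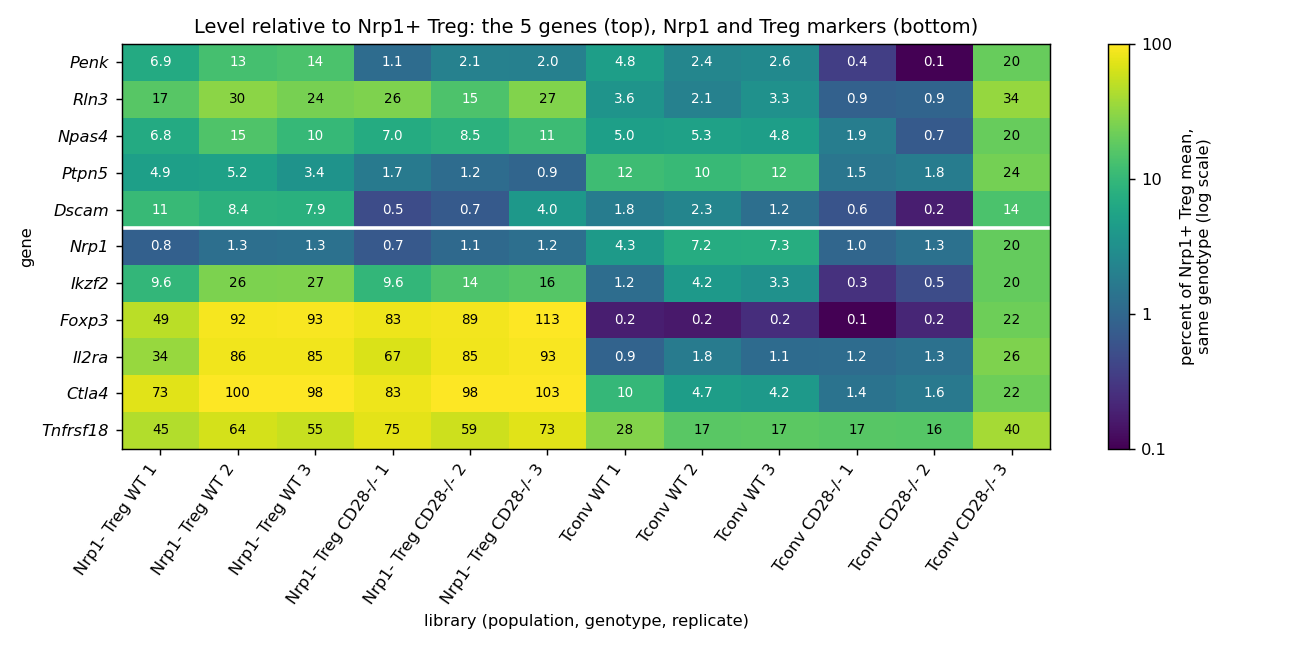
Level of each of the 5 genes of Nrp1 and of 5 Treg markers in each Nrp1- Treg and Tconv library, as a percentage of the mean of Nrp1+ Treg of the same genotype (log color scale, values printed). In CD28-/- Tconv replicate 3 the 5 genes lie at 14.1 to 34.0%, and Nrp1 and the Treg markers at 19.7 to 39.7%, and Penk is lower in the CD28-/- than in the wild type Nrp1- Treg libraries.

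How the members responded to loss of CD28 was tested with limma on log2(FPKM + 1), with Benjamini-Hochberg adjustment over all 12265 genes tested. On this scale the change of a gene near or below 1 FPKM is understated. In Nrp1+ Treg none of the 4 members tested passed an adjusted p of 0.05, in a comparison in which 0.204% of genes did (25 genes, and 469 at an unadjusted p under 0.05). Differences, CD28-/- minus wild type, were -0.33 ± 0.55 (SE) for Penk, with a 95% interval of -1.49 to 0.84, and -0.20 ± 0.67 for Rln3, with an interval of -1.62 to 1.23. Npas4 differed by -0.00 ± 0.33 and Ptpn5 by -0.25 ± 0.23, with an interval of -0.73 to 0.23. All 4 had an adjusted p of 1. With all 18 libraries the intervals still allow a fall of more than 1 log2 unit for Penk and Rln3, and such a rise for Rln3. CD28-/- Tconv replicate 3 enters the spread used for these intervals. Without that library, a choice made after the data were seen, they were -0.84 to 0.19 for Penk and -0.71 to 0.32 for Rln3. The ratios of mean levels, CD28-/- over wild type, were 0.790 for Penk, 0.866 for Rln3, 0.958 for Npas4 and 0.785 for Ptpn5.

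In Nrp1- Treg the CD28-/- mean of Penk was lower than the wild type mean by a ratio of 8.18. The log2 difference was -1.92 ± 0.55 (SE), with a 95% interval of -3.09 to -0.76, an unadjusted p of 0.00299 and a limma adjusted p of 0.417. It therefore did not pass with all 18 libraries, nor did Rln3 or Npas4, beside 0.204% of all genes (25 called, 544 at an unadjusted p under 0.05). CD28-/- Tconv replicate 3, at 7.67 FPKM against 0.140 and 0.0312 in its group, enters the spread that all groups share in this fit. Without that library, a choice made after the data were seen, the same difference of -1.92 had an SE of 0.24, an interval of -2.44 to -1.41 and an adjusted p of 0.00113. Fitted on the Nrp1- Treg libraries alone, its adjusted p was 0.0200. Across all genes the median difference was 0.19, the opposite direction.

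Rln3 and Npas4 differed by less in Nrp1- Treg on the log2 scale. Rln3, which Nrp1- Treg expressed well above the filter, differed by -0.26 ± 0.67 (adjusted p = 0.861) and Npas4 by -0.15 ± 0.33 (adjusted p = 0.836). Ptpn5 and Dscam entered the fit through libraries in which they were high, and in Nrp1- Treg they lay far below 1 FPKM, where the log2(FPKM + 1) scale leaves little room for a difference. They are given there by ratio of means alone, 4.54 and 1.65, wild type over CD28-/-. Penk and Ptpn5 were the 2 of 5 members whose CD28-/- Nrp1- Treg libraries all lay below the wild type ones, a pattern seen in 1.86% of genes tested. For Foxp3 the same libraries, as a share of the mean of Nrp1+ Treg, were at 83.1 to 113% in CD28-/- and 48.5 to 92.7% in wild type cells. Nrp1 was at 0.695 to 1.23% and 0.833 to 1.31%, and Ikzf2 at 9.56 to 16.2% and 9.61 to 26.5%. These ranges overlap, while those of Penk, at 1.15 to 2.10% and 6.90 to 14.1%, do not. For Ikzf2 the overlap rested on wild type replicate 1, at 9.61%, a library that stood apart. Wild type replicates 2 and 3, at 25.5 and 26.5%, lay above all CD28-/- ones. Ikzf2 averaged 13.9 ± 3.56 FPKM in CD28-/- and 23.8 ± 11.0 in wild type Nrp1- Treg. Some other genes that were higher in Nrp1+ than in Nrp1- Treg fell as well. Nr4a2 was at 0.705 to 0.989 FPKM in CD28-/- and 1.32 to 6.56 in wild type Nrp1- Treg, without overlap. Cd83 averaged 3.89 ± 0.492 and 9.15 ± 3.78 FPKM there. Gsta4, at 6.28 ± 0.508 and 6.11 ± 1.08, did not fall. The part of cell content in the Penk difference was not tested.

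In Tconv the result turned on the library that also held Treg transcripts. With all 18 libraries Penk, Rln3 and Npas4 did not pass, beside 0.791% of genes called, all 97 of them lower in CD28-/- cells (1185 at an unadjusted p under 0.05). With the replicate number as a block, 154 genes passed, none of these 3 among them. Penk differed by -0.23 ± 0.55 (adjusted p = 0.957) and Rln3 by 0.29 ± 0.67 (0.956). Ptpn5 and Dscam, at most at 1.05 and 0.422 FPKM in any Tconv library, are given by their levels alone. Without replicate 3 of CD28-/- Tconv, Penk fell by 1.23 on the log2 scale (SE 0.27, interval -1.80 to -0.66, limma adjusted p = 0.0329). Rln3 then differed by -0.98 ± 0.27 (adjusted p = 0.136) and Npas4 by -0.47 ± 0.25 (adjusted p = 0.719), neither of which passed. By ratio of means, wild type over CD28-/- without that library, Penk was at 18.7, Ptpn5 at 8.80, Npas4 at 4.08, Rln3 at 3.86 and Dscam at 1.46. In 4 of 5 members, all but Dscam, replicates 1 and 2 both lay below all wild type Tconv libraries, as they did in 25.1% of genes tested. Nrp1 moved the same way, at 4.30 to 7.31% of the level in Nrp1+ Treg in wild type Tconv and 0.970 and 1.30% in those replicates; its part in the result was not tested.

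**Figure D3:**
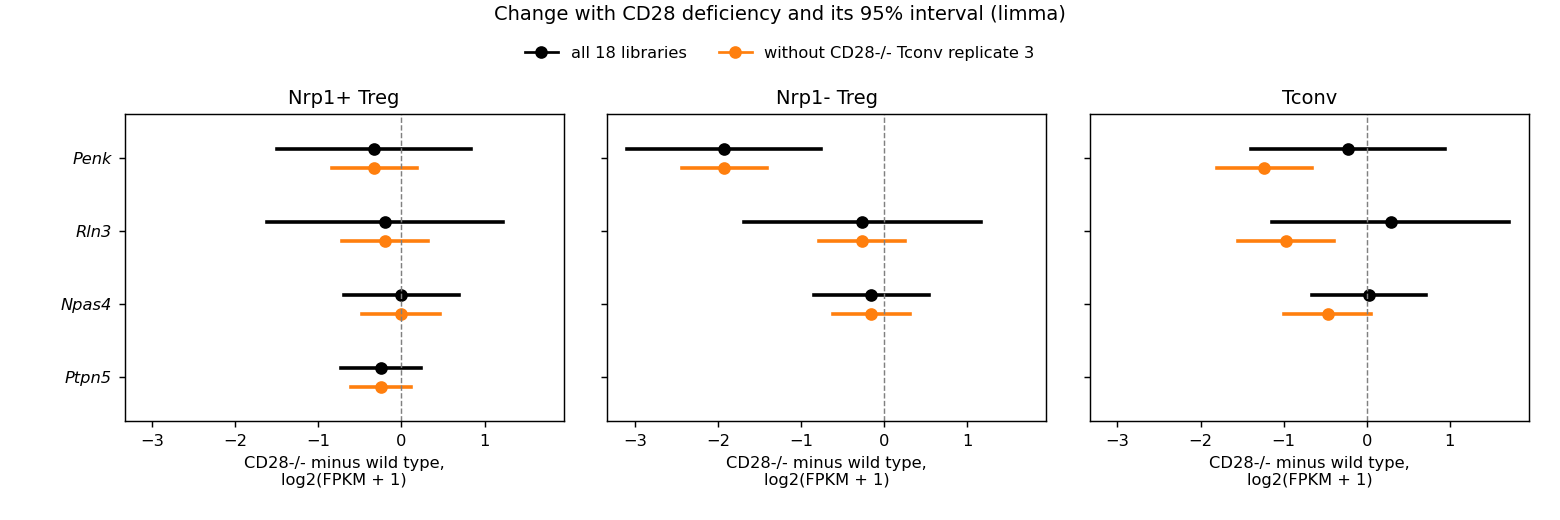
Difference of CD28-/- from wild type cells on the log2(FPKM + 1) scale with its 95% interval (limma) in each population, with all 18 libraries (black) and without CD28-/- Tconv replicate 3 (orange). Left out are Dscam, named for its change in Nrp1+ Treg in an earlier look at these data, and Ptpn5 outside Nrp1+ Treg, where it was low. Penk in Nrp1- Treg lies at -1.92 in both fits, with an interval of -3.09 to -0.76 in the first and -2.44 to -1.41 in the second.

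Whether the CD28 difference itself varied between populations was tested with an interaction term. For Penk, the difference in Nrp1+ Treg minus that in Nrp1- Treg was 1.60 ± 0.78 (SE), with an interval of -0.05 to 3.25 and a limma adjusted p of 0.863. Penk, Rln3 and Npas4 did not pass, beside 0.0245% of genes called (3 genes, 180 at an unadjusted p under 0.05). Without CD28-/- Tconv replicate 3 the Penk value was 1.60 ± 0.34 (unadjusted p = 0.000286, adjusted p = 0.501), and without all 4 libraries that stood apart it was 1.98 with an adjusted p of 0.014. Nrp1+ Treg minus Tconv gave -0.10 ± 0.78 for Penk, -0.48 ± 0.95 for Rln3 and -0.03 ± 0.46 for Npas4, none of which passed, beside 0.122% of genes (15 called, 267 at an unadjusted p under 0.05). For Dscam, described without a test, the 2 values were 1.09 and 0.88. The comparisons share the Nrp1+ Treg libraries.

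The genes whose profile across the 18 libraries was most like that of each member are a description, since every point shares its library and most of the variation lies between Nrp1+ Treg and the rest. For Penk the nearest were Hmgn3, Plagl1, Fam160a1, Ppap2a and Pon3, all at a Pearson r of 0.97. All of these also had a lower mean in CD28-/- than in wild type Nrp1- Treg. For Hmgn3, a nucleosome-binding protein, the means were 0.669 ± 0.404 and 1.63 ± 0.271 FPKM. They were 0.497 and 0.882 for Plagl1, 0.263 and 0.496 for Fam160a1, 0.301 and 0.974 for Ppap2a, and 0.380 and 0.978 for Pon3. These libraries entered the likeness itself. For Npas4 the nearest were Axl, Plagl1, Wnt3, Rgs9 and Fam160a1, all at 0.99. Plagl1, a zinc finger factor, and Fam160a1 were thus near both Penk and Npas4. For Rln3 they were Gsta4 and Myo1e at 0.98, then Ikzf2, Cd83 and Tnfrsf9 at 0.97. Like Rln3, Gsta4, a glutathione transferase, kept a level in Nrp1- Treg, at 6.11 ± 1.08 in wild type and 6.28 ± 0.508 in CD28-/- cells.

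For Ptpn5 the nearest were the noncoding RNA Rian at 0.99, then Dio3os, Nrp1 and Ncrna00086 at 0.98 and Tdpoz4 at 0.97. Nrp1 was used to sort the cells, and like Ptpn5 it was higher in wild type Tconv (4.35 ± 1.18 FPKM) than in wild type Nrp1- Treg. The latter were sorted as Nrp1-, and all Ptpn5 values in these groups lay below 1 FPKM, so this likeness carries little weight. Rian and Dio3os are both transcribed from the imprinted Dlk1-Dio3 region. For Dscam the nearest were Scin and Sspo at 0.98 and Ceacam15, Igfbp7 and Abhd12b at 0.95. Scin, an actin-severing protein, had 0.689 ± 0.185 FPKM in wild type and 2.58 ± 0.61 in CD28-/- Nrp1+ Treg, and Igfbp7, a secreted binding protein, 1.78 ± 0.50 and 5.38 ± 1.10. Among the members themselves r ran from 0.743 between Rln3 and Dscam to 0.960 between Penk and Npas4.

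The partners of the members' pathways were then examined, first between populations. The lists were drawn up with earlier results of these data known, so their calls describe the genes and support nothing about the members. In these comparisons limma called 4.93% of genes tested in wild type Nrp1+ against Nrp1- Treg (605, 545 of them higher), 4.08% in CD28-/- cells (500, 384 higher), 12.6% in wild type Nrp1+ Treg against Tconv (1545, 1022 higher) and 12.1% in CD28-/- cells (1484, 1181 higher). The split depended on the scaling and on the libraries used. After quantile normalization 652 of 1068, 645 of 1139, 1428 of 3100 and 1399 of 2815 calls were higher. Without the 4 libraries that stood apart, 508 of 819 and 566 of 1350 calls were higher in the first pair of comparisons, and with only the compared groups 596 of 1202 were in CD28-/- Nrp1+ against Nrp1- Treg. With the replicate number as a block the first pair of counts became 1224 and 801.

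Of the opioid pathway, Nrp1+ Treg expressed the precursor while the classical receptors and the neuroendocrine convertases stayed below 1 FPKM. Only 7 of 19 genes passed the filter, and none of these 7 was called for CD28 in any population. The receptors Oprm1, Oprd1, Oprk1 and Oprl1 reached at most 0.160, 0.0572, 0.0580 and 0.150 FPKM in any library. The prohormone convertases Pcsk1 and Pcsk2, which cut proenkephalin in neuroendocrine cells, reached at most 0.677 and 0.0457. Pcsk1, too low to be tested, was at 0.242 to 0.271 FPKM in CD28-/- and 0.0692 to 0.111 in wild type Nrp1+ Treg. In Nrp1- Treg it was at 0.107 to 0.314 and 0 to 0.0235, with 2 wild type libraries at 0. The genotypes overlapped in Tconv but in neither Treg population. Pcsk1 was named after its values were seen, and the share of all genes with this pattern is not given. All its values lay below 1 FPKM and the depth is unknown, so this gap carries little weight. Of the peptidases, the enkephalin-degrading enzyme Mme (neprilysin) was at 0 in all 18 libraries, as was the related precursor Pdyn. Dpp3, another peptidase that degrades enkephalins, was at 29.9 ± 1.96 FPKM and the metallopeptidase Ece1 at 12.7 ± 2.31 in wild type Nrp1+ Treg, and neither was called in any comparison. Cpe, the carboxypeptidase that trims the cut peptides, was higher in Nrp1+ Treg than in Tconv by 1.04 ± 0.18 in wild type (adjusted p = 0.000475) and 0.70 ± 0.18 in CD28-/- cells (0.0112), yet its wild type level was only 1.22 ± 0.148 FPKM. Scg5, a chaperone of Pcsk2, was lower than in Nrp1- Treg in wild type by a log2 difference of -0.56 ± 0.13 (0.0165). Ctsl, a protease that can also process proenkephalin, differed from Tconv by -0.80 ± 0.20 in CD28-/- cells (0.0125). In wild type cells it differed by -0.58 ± 0.20 (0.0803), or ± 0.18 (0.0380) with the replicate number as a block. Ogfr, the opioid growth factor receptor, which binds Met-enkephalin, was at 38.1 ± 3.12 FPKM in wild type Nrp1+ Treg and 37.7 ± 8.41 in wild type Tconv, and was not called between these.

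The relaxin family likewise had few members above the filter. Its receptors stayed low, with Rxfp3, the relaxin-3 receptor, at most at 0.0419 FPKM and at 0 in 15 of 18 libraries, and Rxfp1, Rxfp2 and Rxfp4 at most at 0.0319, 0.0333 and 0.389. Of 8 genes, Insl3 and Insl6 were tested and neither was called in any comparison with all 18 libraries and no block. Among the alternatives, Insl6 was called against Tconv in wild type after quantile normalization, and Insl3 against Tconv in CD28-/- cells with only the compared groups. Insl3, at 37.3 ± 2.53 FPKM in wild type Nrp1+ Treg, overlaps Jak3 on the same strand, a T cell kinase gene at 37.6 to 126 FPKM, so its value is uncertain.

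Of the bHLH-PAS factors, the family of Npas4, 7 of 12 were tested. Against Tconv, 3 were higher and 1 lower in Nrp1+ Treg of each genotype. Ahr, the aryl hydrocarbon receptor, was higher by 1.81 ± 0.21 in wild type (adjusted p = 1.73e-05) and by 1.79 in CD28-/- cells (2.71e-05), and Hif1a, the hypoxia factor, by 1.44 ± 0.30 (0.0032) and 1.33 (0.00548). Epas1, a relative of Hif1a, was lower, at -1.32 ± 0.21 (0.000225) and -1.79 (1.91e-05). Arnt2, a dimer partner in this family, was called higher than in Tconv in wild type, at 0.61 ± 0.17 (0.0226), and lower than in Nrp1- Treg in both genotypes, at -0.84 ± 0.17 (0.00543) and -0.73 (0.0171). The family's median difference from Tconv in wild type was 0.61, beside -0.02 over all genes. On the same comparison the median was -0.07 for the opioid list, 0.35 for the activity-regulated genes, 0.09 for the STEP list and 0.09 for the guidance list below.

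Among 12 other activity-regulated neuronal genes, 10 were tested, and Nrn1 was called in all 4 population comparisons. Neuritin, its product, promotes neurite growth and is known in Treg. Its gene overlaps Fars2 on the opposite strand, at 3.70 to 7.81 FPKM. Nrn1 had 30.4 ± 3.95 FPKM in wild type and 55.7 ± 8.02 in CD28-/- Nrp1+ Treg, against 7.05 ± 2.59 in wild type and 7.67 to 11.9 in CD28-/- Nrp1- Treg. It was higher than in Nrp1- Treg by 2.01 ± 0.45 (adjusted p = 0.0113) and 2.37 (0.0036), and than in Tconv by 2.28 (0.00169) and 3.94 (1.63e-05). Nr4a2, an orphan nuclear receptor, was higher than in Tconv by 1.97 ± 0.45 (0.00558) and 1.68 (0.0168), but ranged from 4.25 to 16.4 FPKM within wild type Nrp1+ Treg. Without CD28-/- Tconv replicate 3, Nrn1 was also called in CD28-/- against wild type Tconv, at -1.56 ± 0.28 (0.00716), and for the difference between Nrp1+ Treg and Tconv, at 2.41 ± 0.37 (0.0105). With all libraries no gene of the 6 pathway lists was called for CD28.

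The STEP list, with the related phosphatase Ptpn7 and the substrates of Ptpn5, had 6 of 9 genes tested and none called in any comparison with all 18 libraries and no block. Some alternatives did call them against Tconv. In wild type, quantile normalization called Ptpn7, Mapk14 and Fyn, and leaving out the 4 libraries called Mapk14. In CD28-/- cells Ptpn7 was called after quantile normalization, with only the compared groups and without the 4 libraries. In wild type cells Ptpn7 stood at 60.7 FPKM in Nrp1+ Treg, 56.9 in Nrp1- Treg and 49.0 in Tconv, levels far closer to each other than those of Ptpn5. In the guidance list around Dscam 5 of 17 genes were tested, and the close relative Dscaml1 and the netrin receptor Dcc reached at most 0.0294 and 0.0219 FPKM. Against Tconv, the netrin gene Ntn4 was higher by 1.26 ± 0.14 (1.23e-05) in wild type and 0.78 (0.000955) in CD28-/- cells, and Ntn1 by 0.50 ± 0.15 (0.0358) and 0.89 (0.000418). The netrin receptor gene Unc5a was lower, at -0.80 ± 0.16 (0.00199) and -0.91 (0.000643). Ntn4 was also higher than in wild type Nrp1- Treg, by 0.54 ± 0.14 (0.0378). Levels were low, with Ntn4 at 1.47 ± 0.379 and Ntn1 at 1.12 ± 0.188 FPKM in wild type Nrp1+ Treg. Ntn4 overlaps the pseudogene Gm8580 on the opposite strand, at up to 3.89 FPKM, so its value is uncertain.

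**Figure D4:**
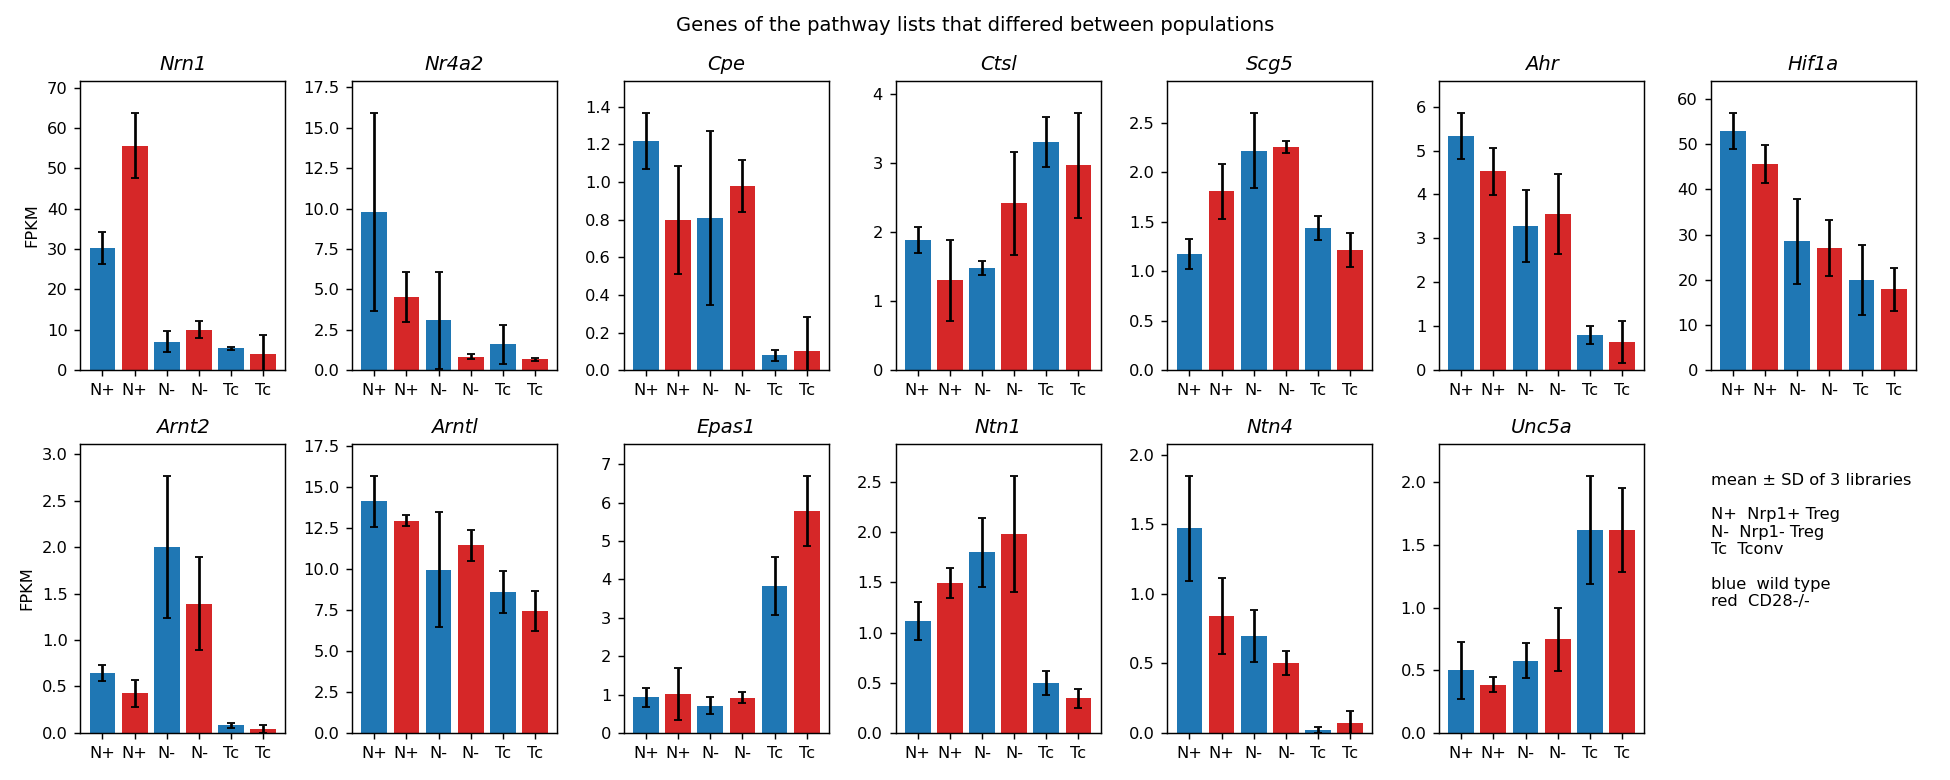
Mean FPKM ± SD (n = 3) of the 13 pathway genes that limma called in at least 1 comparison of Nrp1+ Treg with Nrp1- Treg or Tconv, by population (N+, N-, Tc) and genotype (blue wild type, red CD28-/-). Nrn1 is highest in CD28-/- Nrp1+ Treg at 55.7 ± 8.02, and Epas1 and Unc5a are highest in Tconv.

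Of the 27 calls of a pathway gene in a population comparison, 16 held in every alternative run, among them Ahr, Hif1a, Epas1, Nrn1, Unc5a and Ntn4 against Tconv in both genotypes. The least stable were Ntn4 against wild type Nrp1- Treg, which 9 of 14 alternatives ended, and Ntn1 against wild type Tconv, which 7 ended. Arnt2 against wild type Tconv and Arntl against Tconv in CD28-/- cells (0.73 ± 0.22, adjusted p = 0.033) were each ended by 6. Scg5 against wild type Nrp1- Treg and Nr4a2 against Tconv in CD28-/- cells were each ended by 4, and Arnt2 against Nrp1- Treg, Cpe and Ctsl against Tconv, all in CD28-/- cells, by 3 each. Arnt2 against wild type Nrp1- Treg was ended by 1. Nrn1 against wild type Nrp1- Treg was lost without wild type Nrp1+ Treg replicate 3, without wild type Nrp1- Treg replicate 1 and with a pseudocount of 0.1, at an adjusted p of up to 0.0685. With the replicate number as a block, calls of pathway genes rose from 4 to 9 for wild type Nrp1+ against Nrp1- Treg and from 2 to 5 for CD28-/- cells. The genes added in both were Hif1a at 0.93 ± 0.20 (0.00673) and 0.75 (0.0323), Egr3, an immediate early factor, at 1.39 ± 0.25 (0.00219) and 0.95 (0.0353), and Nr4a2 at 1.46 ± 0.39 (0.0277) and 1.55 (0.0264). Against Tconv the block raised the calls in wild type from 10 to 13, adding, beside Ctsl, Arntl at 0.66 ± 0.18 (0.0158) and Egr3 at 1.18 ± 0.25 (0.00327), and changed none of the 11 in CD28-/- cells.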

How the data were processed

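RNA-seq was analysed from 18 libraries of sorted spleen T cells, 3 in each of 6 groups taken from the sample titles. Per the submitters' processing notes, the authors used Trimmomatic 1, TopHat2 2.0.11 and Cufflinks with the GRCm38 build; roles, annotation and strand setting are not given in the sources used here. The deposited tables hold 1 value per gene symbol, read as FPKM from the tool named and from the values, since no label states the unit. FPKM values carry no read counts, low values shared no common step (at most 6.61% of genes low in both libraries of a pair at the commonest ratio), and depth and counting error are unknown. No pair of the 153 was identical.

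Values were analysed as log2(FPKM + 1) with limma 3.58.1 in R 4.3.3. A group-means model with a variance trend was fitted to all 18 libraries (12 residual degrees of freedom) and to the 12265 genes that reached 1 FPKM in 3 or more libraries, two-sided, with Benjamini-Hochberg adjustment over these genes in each of 9 comparisons and a threshold of 0.05. The procedure was tested on simulated data with 200 changed genes. The 5 members and the pathway and marker lists were chosen with earlier results of these data known, so the members' levels between populations, the CD28 difference of Dscam, and that of Ptpn5 where it was low are given without a test. Calls of listed genes are adjusted over all genes tested and are descriptions. Genes were named by this rule: the members; the 5 tested genes with the highest Pearson r to each, leaving out unnamed models, antigen receptor segments and small RNAs; at most 4 called genes per pathway list and comparison; and Foxp3, Nrp1 and Cd28. Further genes of the lists were named after their values were seen. Same-numbered libraries deviated together (r over 0.1 for every number) in the Tconv comparison of genotypes and in the population comparisons. Elsewhere at least 1 number fell short of that rule, although 17 of 18 libraries were most like a library of their own number. No label states a common animal or day. Alternatives were a pseudocount of 0.1, no filter, no variance trend, only the compared groups, quantile normalization, a replicate block, each library left out, the 4 libraries that stood apart left out, and, added after seeing the data, CD28-/- Tconv replicate 3 alone left out. A marker each of the B cell and glial lists is not reported here and was left out of the sums.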

Additional observations from a re-analysis of the deposited data

How the results depend on the processing

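Calls with all libraries were few, and the members' results turned mainly on CD28-/- Tconv replicate 3. For Penk in Nrp1- Treg the difference had the same direction throughout. It passed with only the compared groups (-1.92, limma adjusted p = 0.0200), without the 4 libraries that stood apart (-2.19, 0.000156) and without CD28-/- Tconv replicate 3 (-1.92, 0.00113), and under no other alternative. It did not pass with a pseudocount of 0.1 (adjusted p = 0.755), no filter (0.549), no variance trend (0.45), the replicate block (0.191) or quantile normalization (-2.07, 0.125), which moved the median of all genes in that comparison from 0.19 to 0.02. Nor did it with any of the 6 Nrp1- Treg libraries left out singly (-2.19 to -1.76, lowest adjusted p = 0.312). Penk in Tconv passed without the 4 libraries (-1.03, 0.0114) and without replicate 3 (-1.23, 0.0329), and with single libraries left out ranged from -1.23 to 0.31. Its difference between Nrp1+ and Nrp1- Treg passed only without the 4 libraries (1.98).

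Several differences changed sign, and those of Penk, Rln3 and Npas4 were called neither before nor after the change. Those of Dscam and Ptpn5 are given by value alone. Both genes were low outside Nrp1+ Treg, where the log2(FPKM + 1) scale leaves little room for a difference. With a pseudocount of 0.1 the differences that changed sign were Npas4 in Nrp1+ Treg (0.00203) and Rln3 (-0.0633) and Npas4 (-0.44) in Tconv. For Nrp1+ Treg minus Tconv they were Penk (1.04) and Npas4 (0.44). Quantile normalization did so for Npas4 in Nrp1+ Treg (0.0548), Dscam in Nrp1- Treg (0.0308), and Ptpn5 in the difference from Nrp1- Treg (-0.0273) and from Tconv (-0.0137). Without the 4 libraries they were Npas4 in Nrp1+ Treg (0.00918), Rln3 (-0.88), Npas4 (-0.47) and Dscam (-0.00735) in Tconv, and Penk (0.82), Rln3 (0.72) and Npas4 (0.48) for Nrp1+ Treg minus Tconv. Without CD28-/- Tconv replicate 3 alone the last 6 were -0.98, -0.47, -0.00766, 0.90, 0.78 and 0.47. Leaving out single libraries gave -0.16 to 0.29 for Npas4 in Nrp1+ Treg and -0.48 to 0.00424 for Rln3 in Nrp1- Treg. In Tconv it gave -0.98 to 0.93 for Rln3, -0.47 to 0.31 for Npas4 and -0.00766 to 0.24 for Dscam. For Nrp1+ minus Nrp1- Treg it gave -0.20 to 0.29 for Rln3, -0.00613 to 0.44 for Npas4 and -0.16 to 0.25 for Ptpn5. For Nrp1+ Treg minus Tconv it gave -0.63 to 0.90 for Penk, -1.12 to 0.78 for Rln3, -0.32 to 0.47 for Npas4 and -0.10 to 0.37 for Ptpn5.

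Counts of all genes called moved more. In Nrp1+ Treg 25 genes became 3 with a pseudocount of 0.1, 68 with no filter and 51 after quantile normalization. In Nrp1- Treg 25 became 11 with the pseudocount and also with only the compared groups, 80 after quantile normalization and 101 without the 4 libraries. In Tconv 97 became 7 with only the compared groups, 256 without the 4 libraries and 152 without replicate 3. The 3 calls of the difference between Nrp1+ and Nrp1- Treg became 1 with the pseudocount, 7 with no filter and 5 without the 4 libraries. The 15 of Nrp1+ Treg minus Tconv became 3, 26 and 58 under those settings, 2 with only the compared groups, 24 after quantile normalization and 36 without CD28-/- Tconv replicate 3. Nrp1+ against Nrp1- Treg went from 605 to 368 with the pseudocount, 255 with only the compared groups and 1068 after quantile normalization in wild type, and from 500 to 1202 with only those groups, 1139 after quantile normalization and 1350 without the 4 libraries in CD28-/- cells. Against Tconv, quantile normalization gave 3100 for 1545 and 2815 for 1484. Leaving out single libraries gave 12 to 21, 6 to 37 and 44 to 152 for CD28 in Nrp1+ Treg, Nrp1- Treg and Tconv, 3 to 36 for Nrp1+ Treg minus Tconv, and 348 to 653 and 322 to 395 for Nrp1+ against Nrp1- Treg in wild type and CD28-/- cells. Causes of these changes were not tested.

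With the replicate number as a block, calls became 47 in Nrp1+ Treg, 41 in Nrp1- Treg, 154 in Tconv, and 1224 and 801 for Nrp1+ against Nrp1- Treg in wild type and CD28-/- cells. The block changed no call of a member. Where the numbers did not pair the libraries by the rule used, the lowest correlation of same-numbered deviations was 0.0408 in Nrp1+ Treg and 0.0627 in Nrp1- Treg, although 17 of 18 libraries were most like a library of their own number. The depth is unknown, so no limit of detection can be given for Dscam and Ptpn5 outside Nrp1+ Treg.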
